A study of Mus musculus with 2 samples.

Results

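Luminal progenitor-type nuclei of the lactating mouse mammary gland were 277 of 20854 nuclei (1.33%, 95% exact binomial interval 1.18 to 1.49%). This and the later binomial intervals cover counting error only, not the spread between animals, whose shares ran from 0.298% to 2.59%. They were chosen by their own RNA counts: at least 3 of the 8 genes Kit, Fcgbp, Clca3a2, Klk11, Thsd4, Wnt5b, Lrrc36 and Aldh1a3 had 1 or more unique molecular identifiers (UMIs, each a single captured RNA molecule), and at most 1 UMI was summed over Ptprc, Pdgfra, Pecam1, Trp63 and Adipoq, genes of leukocytes, fibroblasts, endothelium, basal epithelium and adipocytes. The 277 nuclei are called members, and the 20577 nuclei that did not meet the rule are called other nuclei. Because UMIs of the same nuclei chose the members, their levels against other nuclei are given as a description, with no test, and a high level of any of the 8 genes in members is not a finding.

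The tissue was the inguinal fat pad with its mammary gland, taken on postnatal day 11 of lactation from dams whose breeding began at 8 weeks of age, with lymph nodes removed and litters set to 4 to 5 pups on day 1. There were 4 animals with an adipocyte-specific deletion of the oxytocin receptor gene Oxtr, whose hashtags (DNA tags that mark the animal of a nucleus) are named Oxtr-KO, and 4 animals with a floxed Oxtr gene. The hashtags of the second group are named WT, and they were taken as the floxed animals because that is the only other genotype in the labels. The labels do not name the promoter that drives the deletion, and all 8 animals shared 1 pool and 1 library. The labels give litter sizes as a batch, 7 litters of 5 pups and 1 of 3, without tying them to animals, and some nuclei, not said which, were washed to lower free RNA.

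The mammary epithelium has an outer layer of contractile myoepithelial cells and an inner luminal layer. Luminal cells include hormone-sensing cells that carry estrogen receptor, and progenitors that lack it, carry the receptor tyrosine kinase Kit and give rise to milk-secreting alveolar cells under prolactin and the transcription factor Elf5. During lactation most of the epithelium is secretory.

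The library held 107910356 UMIs in 21805 barcodes and 33943 genes, and 951 barcodes were removed for too few UMIs or genes or too much mitochondrial RNA. Members had a median of 4039 UMIs (783 to 56174) and 1976 genes, against 4360 UMIs and 1835 genes in other nuclei. Of the members, 160 carried the hashtag of 1 named animal, 65 carried none that could be called, 51 carried more than 1 and 1 carried a hashtag of an unknown sample. Hashtag doublets were thus 18.4% of members and 9.53% of other nuclei. RNA of 8 milk protein genes was 10.4% of UMIs in members and 14.8% in other nuclei. The animals labelled Oxtr-KO did not have less Oxtr in nuclei of the adipocyte-like cluster, where 4, 6, 5 and 4 UMIs were counted in animals 1 to 4 (14.1, 15.6, 21.6 and 15.9 CPM, a set's UMIs of a gene scaled to the same sum over all genes) against 2, 1, 1 and 1 UMIs in the animals labelled WT (7.31, 5.81, 4.21 and 5.81 CPM). The genotypes are therefore used as labels throughout. No source used here says whether the counted end of the transcript lies in the deleted part, and if it does not, these counts check nothing.

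Clustering of all 20854 nuclei, which did not use the rule but used the same UMIs, placed 231 of the 277 members (83.4%, 95% exact binomial interval 78.5 to 87.6%) in 1 of 13 clusters. That cluster of 293 nuclei was led by Fcgbp, Alox12e, Klk11, Atp6v1b1 and Kit. All 8 rule genes were at least 2-fold higher there than in the rest. That is largely fixed, since members make up most of the cluster and it was picked by these genes. Outside the rule, 9 of 16 luminal progenitor genes and 9 of 12 pan-luminal genes were at least 2-fold higher there, and none of the secretory genes was. It is called luminal progenitor-like by these genes outside the rule. The 46 members outside it lay in the secretory-like cluster (17 of its 10475 nuclei), the fibroblast-like cluster (12 of 1901), the 2 myoepithelial-like clusters (3 and 4), clusters led by mitochondrial genes and by Nrg3 (3 each), and T cell-like and adipocyte-like clusters (2 each). No member lay among 799 macrophage-like, 576 endothelial-like, 153 pericyte-like or 52 hormone-sensing-like nuclei. For macrophage-like nuclei (804 CPM of Ptprc) and endothelial-like nuclei (455 CPM of Pecam1) the excluding genes fix this in part.

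Members outside the luminal progenitor-like cluster carried RNA of other types. Their median depth was 8819 UMIs, against 3642 UMIs for members inside it, and 21 of 46 (45.7%) were hashtag doublets, against 30 of 231 (12.99%). Kit was at 405 CPM inside and 70.2 outside, Fcgbp at 1848 CPM inside and 237 outside and Ltf at 1523 CPM inside and 427 outside. Fibroblast Lama2, a laminin chain, was at 7.96 CPM inside and 332 outside, smooth muscle myosin Myh11 at 7.96 CPM inside and 103 outside and the adipocyte carbonic anhydrase Car3 at 9.95 CPM inside and 137 outside. The part of doublets in the members outside the cluster was not tested. The 62 nuclei of the cluster that were not members had Clca3a2 at 703 CPM and Trps1 at 3579 CPM but Kit at 40.3 and Aldh1a3 at 10.98 CPM.

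The rule has a threshold at 3 markers. There were 85 members with 3 markers, 64 with 4, 60 with 5 and 68 with 6 or more, and 277 nuclei had exactly 2 markers and passed the exclusion. A further 45 nuclei had 3 or more markers but failed the exclusion. Of nuclei just inside, with 3 markers, 58 of 85 (68.2%) lay in the luminal progenitor-like cluster, and of those just outside, with 2, 36 of 277 (13%) did. The share was 85.9% with 4 markers, 93.3% with 5, 97.7% with 6, 80% (16 of 20) with 7 and 75% (3 of 4) with 8. Alox12e was at 84.2 CPM with 3 markers and 3.04 with 2, Atp6v1b1 at 44.9 CPM with 3 markers and 9.11 with 2, Ltf at 322 CPM with 3 markers and 146 with 2 and Trps1 at 3028 CPM with 3 markers and 1459 with 2. Elf5 was at 573 CPM with 3 markers and 577 with 2 and the milk casein Csn2 at 32951 CPM with 3 markers and 35144 with 2.

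**Figure D1:**
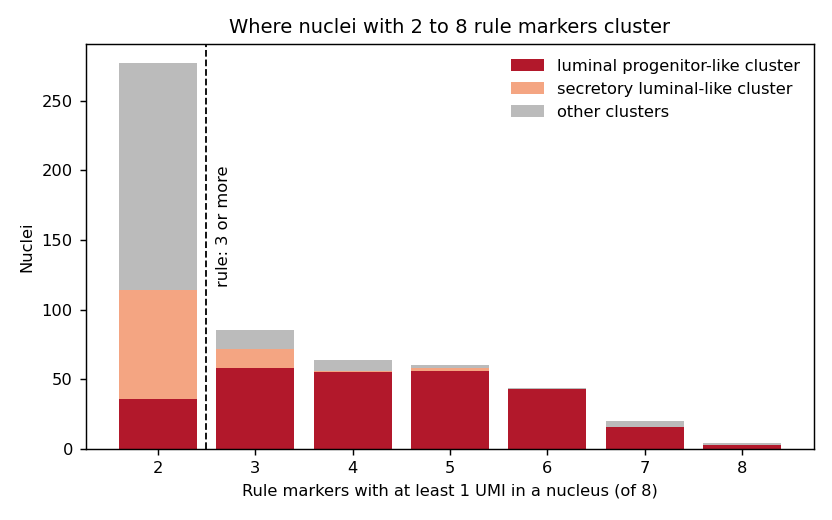
Number of nuclei (vertical axis) by the number of the 8 rule markers with a UMI (horizontal axis, 2 to 8), among nuclei that passed the exclusion, coloured by the cluster they fell in; the dashed line marks the rule. Most of the 277 nuclei with 2 markers lay outside the luminal progenitor-like cluster, and 58 of 85 with 3 markers lay in it.

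The 8 genes of the rule give the outline of these nuclei. Kit encodes the receptor for stem cell factor. Fcgbp encodes a mucin-like protein of mucus, Clca3a2 a regulator of calcium-activated chloride currents, Klk11 a secreted kallikrein protease, Thsd4 a fibrillin-binding matrix protein, Wnt5b a Wnt ligand and Aldh1a3 a retinaldehyde dehydrogenase. Thsd4 was seen in the most members (232, 83.8%), followed by Clca3a2 (205, 74.0%), Fcgbp (198, 71.5%), Wnt5b (165, 59.6%), Kit (163, 58.8%), Klk11 (103, 37.2%), Lrrc36 (98, 35.4%) and Aldh1a3 (83, 29.96%). UMIs per nucleus were uneven. Fcgbp reached 53 UMIs in 1 nucleus and Clca3a2 reached 72.

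Droplets hold free RNA, so shares of nuclei with a UMI were set beside those of fibroblast-like nuclei, which should lack Kit and Fcgbp, after each nucleus had been thinned to 2000 UMIs. Shallower nuclei were left out, which removed 27 members and 3208 other nuclei and left 250 and 17369, with 1450 fibroblast-like nuclei. Median depth before thinning was 4039 UMIs in members and 2883 in fibroblast-like nuclei. Kit was then seen in 41.6% of members, 0.386% of other nuclei and 0.138% of fibroblast-like nuclei, and unthinned in 58.8%, 0.734% and 0.424%. Fcgbp was seen in 58% of members, 0.737% of other nuclei and 1.17% of fibroblast-like nuclei, unthinned in 71.5%, 1.39% and 1.32%. Aldh1a3 stood at 16.2 CPM in fibroblast-like nuclei and 0.489 in secretory-like nuclei, so fibroblast-like nuclei give no measure of free RNA for it. It was seen in 17.6% of thinned members, 3.72% of thinned fibroblast-like and 0.0875% of thinned secretory-like nuclei, unthinned in 29.96%, 4.71% and 0.239%.

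By level, Kit stood at 289.8 CPM in members and 1.84 in other nuclei, Fcgbp at 1294 CPM in members, 4.34 in others, Clca3a2 at 922 CPM in members, 32.5 in others and Klk11 at 127 CPM in members, 0.482 in others. Thsd4 stood at 568 CPM in members, 13.1 in others, Wnt5b at 273 CPM in members, 8.59 in others, Lrrc36 at 132 CPM in members, 4.45 in others and Aldh1a3 at 129 CPM in members, 1.89 in others. Some of these genes were also present in other epithelial nuclei: myoepithelial-like nuclei had 171 CPM of Clca3a2 and hormone-sensing-like nuclei had 162 CPM of Lrrc36. Of the excluding genes, Ptprc stood at 2.61 CPM in members, 45.1 in others and Trp63, a basal transcription factor, at 4.57 CPM in members, 51.9 in others, as the rule fixed.

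Across animals Kit was at 96.3, 162, 449 and 253 CPM in members of Oxtr-KO animals 1 to 4 and at 534, 628, 216 and 163 CPM in members of WT animals 1 to 4. In other nuclei it was at 0.704 to 2.11 CPM in the 8 animals, below the lowest member value. Fcgbp was at 1124, 782, 2431 and 1545 CPM in members of Oxtr-KO animals 1 to 4 and at 2165, 1079, 956 and 440.2 CPM in members of WT animals 1 to 4. The genotypes overlapped for both genes. Aldh1a3 was at 32.1, 58.2, 107 and 179.8 CPM in members of Oxtr-KO animals 1 to 4 and at 180.4, 275, 49.9 and 212 CPM in members of WT animals 1 to 4, and varied more between animals than between the labels, with few UMIs behind each value (197 in all members).

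Among the 231 members in the luminal progenitor-like cluster, Aldh1a3 was seen with some rule genes more often than with others. Of 73 nuclei with Aldh1a3, 57 (78.1%) also had Kit, against 62.3% of all 231, and 67 (91.8%) had Fcgbp, against 76.2%. Clca3a2 was seen in 47 (64.4%) of them, against 75.3% of all. These shares are not thinned and were not tested, since the rule asks for combinations of the same genes.

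The genes with the highest ratio to other nuclei are shown with the promoter stretch just before their transcription start, since no promoter had been used to choose them: Fcgbp, which has the highest ratio of the rule genes, and Alox12e and Atp6v1b1, the highest outside the rule. The 250 bases before the start are from RefSeq on GRCm38.p6, while the counts were made on GRCm39, and the promoters are matched by symbol. Fcgbp lies at chr7:28070986-28071235 on the plus strand, Alox12e at chr11:70322531-70322780 on the minus strand and Atp6v1b1 at chr6:83742767-83743016 on the plus strand. Capitals mark the letters AGGAAG, a core bound by ETS factors such as Elf5 and Ehf.
Fcgbp: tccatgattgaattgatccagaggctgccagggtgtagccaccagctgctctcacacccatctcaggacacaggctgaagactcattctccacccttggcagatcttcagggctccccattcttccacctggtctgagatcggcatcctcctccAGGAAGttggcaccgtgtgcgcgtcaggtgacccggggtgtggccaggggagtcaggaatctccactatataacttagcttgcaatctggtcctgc
Alox12e: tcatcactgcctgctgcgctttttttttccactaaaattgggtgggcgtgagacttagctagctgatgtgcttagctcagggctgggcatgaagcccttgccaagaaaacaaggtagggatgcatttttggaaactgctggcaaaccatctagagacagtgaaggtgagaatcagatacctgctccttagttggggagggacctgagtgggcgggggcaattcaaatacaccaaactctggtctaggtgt
Atp6v1b1: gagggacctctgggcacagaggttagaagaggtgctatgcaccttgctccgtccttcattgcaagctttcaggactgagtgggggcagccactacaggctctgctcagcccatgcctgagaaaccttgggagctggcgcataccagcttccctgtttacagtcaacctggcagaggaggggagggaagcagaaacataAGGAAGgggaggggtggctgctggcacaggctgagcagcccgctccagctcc
AGGAAG was searched on both strands, and each of Fcgbp and Atp6v1b1 holds 1 match while Alox12e holds none. It occurs in 29.5% of all 32851 promoters of that length, in 41 of 147 (27.9%) of the promoters of genes at a log2 ratio of 2 or more in members, and in 26.8% of 5621 promoters of genes with at least 30 UMIs in members. The letters AACNNGTT, bound by grainyhead factors such as Grhl2, were in none of the 3, in 5 of the 147 (3.40%) and in 3.64% of all promoters. Promoters were matched for 147 of 215 genes.

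Outside the rule, the genes with the highest ratios included a lipoxygenase, a proton pump subunit, a membrane mucin, ion channels and secreted carriers. The log2 ratio used here is that of CPM plus 1 in members to CPM plus 1 in other nuclei. Over the 11038 genes with at least 10 UMIs in members its median was 0.18, with 1155 genes (10.5%) at 1 or more and 239 (2.17%) at -1 or less. The 25 genes named here have the highest ratios among genes with at least 30 UMIs in members and a UMI in members of all 8 animals. They ranged between 12.4-fold and 442-fold. Since the genes were picked by this ratio and for a UMI in every animal, their being higher in members animal by animal is largely fixed by that choice.

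Alox12e, an epidermal lipoxygenase, was at 385, 71.1, 221 and 24.5 CPM in members of Oxtr-KO animals 1 to 4 and at 135, 78.5, 299 and 81.5 CPM in members of WT animals 1 to 4 (log2 ratio 7.09). In other nuclei it did not pass 0.659 CPM in any animal. Atp6v1b1, a subunit of the proton pump of acid-secreting epithelial cells, was at 289, 103, 174 and 57.2 CPM in members of Oxtr-KO animals 1 to 4 and at 263, 78.5, 41.5 and 212 CPM in members of WT animals 1 to 4, against 0 to 0.989 CPM in other nuclei (log2 ratio 6.49). Every animal had both genes in members, and the labels overlapped. Alox12e was seen in 17.6% of thinned members and 0.138% of thinned fibroblast-like nuclei (25.6% and 0.212% unthinned).

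Surface glycoproteins and an enzyme that sulfates sugars were one group among the 25. Msln, the surface protein mesothelin, stood at 84.2 CPM in members and 0.662 in other nuclei, Muc4, a membrane mucin, at 51.6 CPM in members, 0.378 in others, and Chst9, a sulfotransferase that acts on N-acetylgalactosamine, at 63.3 CPM in members, 0.690 in others. Transport genes were another. Trpm6, a magnesium channel, stood at 68.5 CPM in members, 1.45 in others, the potassium channels Kcnh8 at 81.6 CPM in members, 2.65 in others and Kcnd2 at 430.1 CPM in members, 28.8 in others, the lipid flippase Atp10b at 121 CPM in members, 7.42 in others and the sphingosine-1-phosphate exporter Spns2 at 120.1 CPM in members, 9.70 in others. Genes of lipid membranes were Mboat1, a lysophospholipid acyltransferase, at 46.3 CPM in members, 1.66 in others with 55.7 CPM in hormone-sensing-like nuclei, and Plscr2, a scramblase, at 65.3 CPM in members, 4.86 in others with 34.6 CPM in endothelial-like nuclei.

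Secreted carriers and binding proteins were also among the 25. Ltf, the iron-binding milk protein lactotransferrin, was at 482, 924, 1112 and 1692 CPM in members of Oxtr-KO animals 1 to 4 and at 1887, 1589, 490.2 and 880.4 CPM in members of WT animals 1 to 4, against 44.6 to 73.5 CPM in other nuclei. All 8 member values stood above all other nuclei. Apod, a lipid carrier, was at 128, 737, 1313 and 466 CPM in members of Oxtr-KO animals 1 to 4 and at 834, 19.6, 33.2 and 391 CPM in members of WT animals 1 to 4. WT animals 2 and 3 lay within the range of other nuclei over the 8 animals (11.96 to 67.2 CPM). Igfbp5, an insulin-like growth factor binding protein, stood at 192 CPM in members, 15.3 in others, and was higher still in hormone-sensing-like nuclei (357 CPM). Ltbp1, which binds latent TGF-beta, stood at 359 CPM in members, 23.9 in others with 224 CPM in fibroblast-like nuclei, and Ntng1, a netrin relative, at 585 CPM in members, 43.6 in others with 312 CPM in myoepithelial-like nuclei. Each of these 3 was thus also high in a cluster of another type.

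The rest of the 25 were Phlda1 (185 CPM in members, 11.3 in others), the membrane metalloprotease Mmp15 (50.3 CPM in members, 3.06 in others), Rgs20, which ends G protein signals (292 CPM in members, 23.3 in others), Rasgef1c (36.5 CPM in members, 1.16 in others), and 4 genes without a role given here, 2310002F09Rik (146 CPM in members, 1.14 in others), Gm8439 (49.6 CPM in members, 0.463 in others), Gm47865 (40.5 CPM in members, 0.586 in others) and BC006965 (603 CPM in members, 35.7 in others, with 206 CPM in myoepithelial-like nuclei). In all, 215 genes with at least 30 UMIs in members were at a log2 ratio of 2 or more. Limiting members to the luminal progenitor-like cluster gave 301 such genes, leaving out hashtag doublets gave 259 and thinning each nucleus to 2000 UMIs gave 166.

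**Figure D2:**
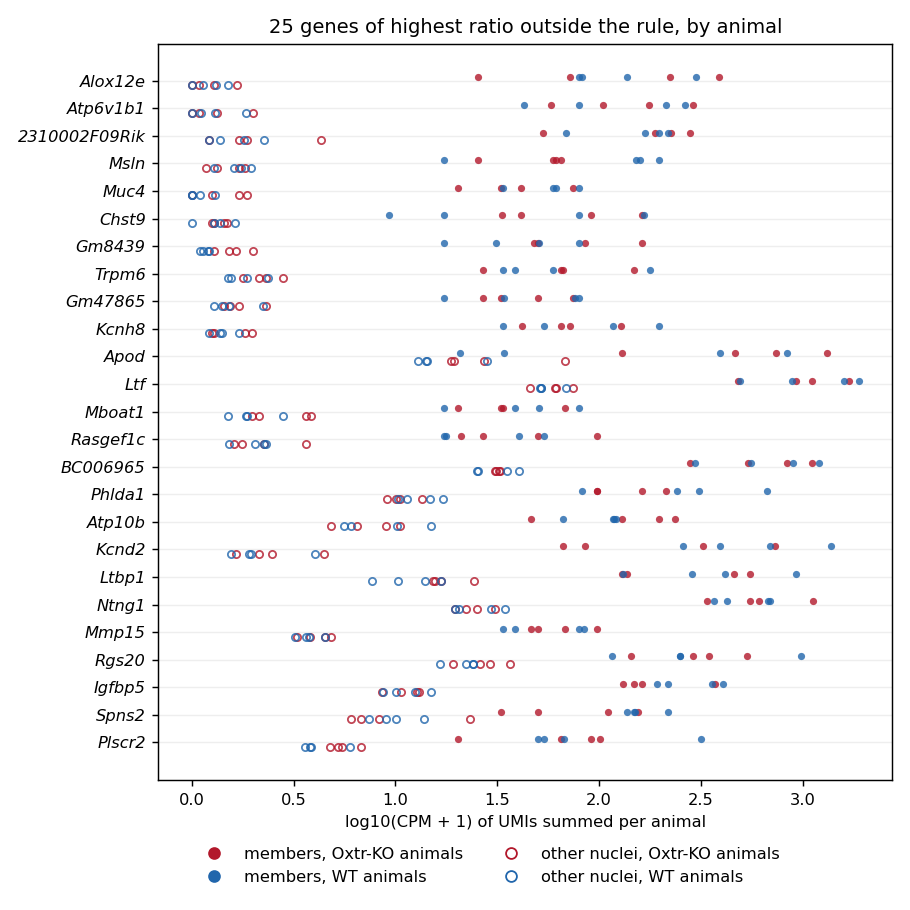
The 25 genes outside the rule with the highest ratio, one per row, against log10 of CPM plus 1; filled points are members and open points other nuclei, one point per animal, red for animals labelled Oxtr-KO and blue for those labelled WT. As the choice of genes largely fixes, filled points lie right of the open ones except for Apod, where 2 WT animals lie among them, while red and blue points are mixed.

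Luminal progenitor genes that the rule did not use were higher as a group but unevenly so. Of 16, 14 had at least 10 UMIs in members, their median log2 ratio was 2.10, against 0.18 for all genes, and 8 were at 1 or more and none at -1 or less. Their summed level was 3913 CPM in members and 1998 CPM in other nuclei, and was higher in members in 8 of 8 animals. The genes at 1 or more were Ltf, Itga2, a collagen-binding integrin (123 CPM in members, 5.18 in others), the tight junction gene Cldn1 (16.97 CPM in members, 0.359 in others), Basp1 (83.5 CPM in members, 12.8 in others), the tetraspanin Tspan8 (125 CPM in members, 20.5 in others), Cd14, a receptor for bacterial lipopolysaccharide (112 CPM in members, 19.9 in others), Lurap1l (243 CPM in members, 52.9 in others) and the forkhead factor Foxc1 (26.1 CPM in members, 5.63 in others). Basp1 was as high in macrophage-like nuclei (91.1 CPM).

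The other transcription factors among these luminal progenitor genes did not stand out, so their levels do little to mark members as progenitors. Elf5, which drives alveolar differentiation, was at 604 CPM in members, 669 in others, with 806 CPM in secretory-like nuclei and 405 CPM in macrophage-like nuclei, which should lack it. Ehf, a related ETS factor, was at 773 CPM in members, 536 in others, Sox10 at 382 CPM in members, 339 in others, Sox9 at 90.7 CPM in members, 79.6 in others and Bcl11a at 151 CPM in members, 173 in others. Elf5 thus does not separate members from milk-making nuclei in these counts, and the part of free RNA in its level was not tested. The integrin Itgb3 (5.87 CPM in members, 8.33 in others) and Lypd3 (7 UMIs in members) had too few UMIs for the list, and Cxcl1, a chemokine, was at 24.8 CPM in members, 14.5 in others.

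Keratins and junction genes shared by luminal cells were higher in members than in other nuclei, many of which are luminal too. Of 12 pan-luminal genes, 9 were at a log2 ratio of 1 or more and none at -1 or less, with a median of 1.30. Krt19, a keratin of simple and duct epithelium, stood out most among those with over 100 UMIs, at 163 CPM in members and 18.9 in other nuclei, with 15.6 CPM in secretory-like and 111 CPM in hormone-sensing-like nuclei. The adhesion gene Cdh1 was at 159 CPM in members, 47.3 in others, Krt18 at 121 CPM in members, 48.4 in others, Krt8 at 48.9 CPM in members, 19.3 in others and Grhl2, a grainyhead factor of epithelial junctions, at 161 CPM in members, 69.9 in others. Krt18 (156 CPM) and Cldn3 (94.7 CPM, 75.1 in members) were higher in hormone-sensing-like nuclei than in members. Epcam was at 415 CPM in members, 266 in others with 551 CPM in hormone-sensing-like nuclei, and the splicing factor Esrp1 at 333 CPM in members, 307 in others.

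Epithelial transcription factors were the next group. The list also holds Elf5, Ehf, Sox9, Sox10, Foxc1, Bcl11a and Grhl2, given above, so Foxc1 and Grhl2 are counted again. Of 28, 25 had at least 10 UMIs, 9 were at 1 or more and only Mecom (10.4 CPM in members, 24.8 in others) at -1 or less, with a median of 0.63. Tfcp2l1, a grainyhead-like factor of duct epithelia, was at 43.1 CPM in members and 5.19 in other nuclei, Barx2, a homeobox factor, at 247 CPM in members, 40.4 in others, Tfap2c at 112 CPM in members, 38.5 in others, Zfp36l1, which binds AU-rich mRNA, at 258 CPM in members, 84.9 in others and Trps1, a GATA-type repressor, at 3567 CPM in members, 987 in others. Trps1 was higher still in hormone-sensing-like nuclei, at 6885 CPM.

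Milk genes were lower in members but far from absent. None of 15 secretory genes was at 1 or more, 1 was at -1 or less (Elovl5, a fatty acid elongase, 518 CPM in members, 1130 in others), and the median log2 ratio was -0.49. Their summed level was 116966 CPM in members, 170699 CPM in other nuclei and 176866 CPM in secretory-like nuclei. Slc28a3, a nucleoside transporter, was at 5115 CPM in members and 9603 in other nuclei, Acaca, the rate-limiting enzyme of fatty acid synthesis, at 3480 CPM in members, 5672 in others, Xdh, which coats milk fat droplets, at 2689 CPM in members, 3684 in others and Csn2, beta-casein, at 31393 CPM in members, 42401 in others. Macrophage-like nuclei, which make no milk, had 5789 CPM of Slc28a3, 3557 CPM of Acaca, 2297 CPM of Xdh and 37925 CPM of Csn2. For these 4 genes the level in members was thus near that in nuclei that should lack them, and the part of free RNA in these levels was not tested.

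**Figure D3:**
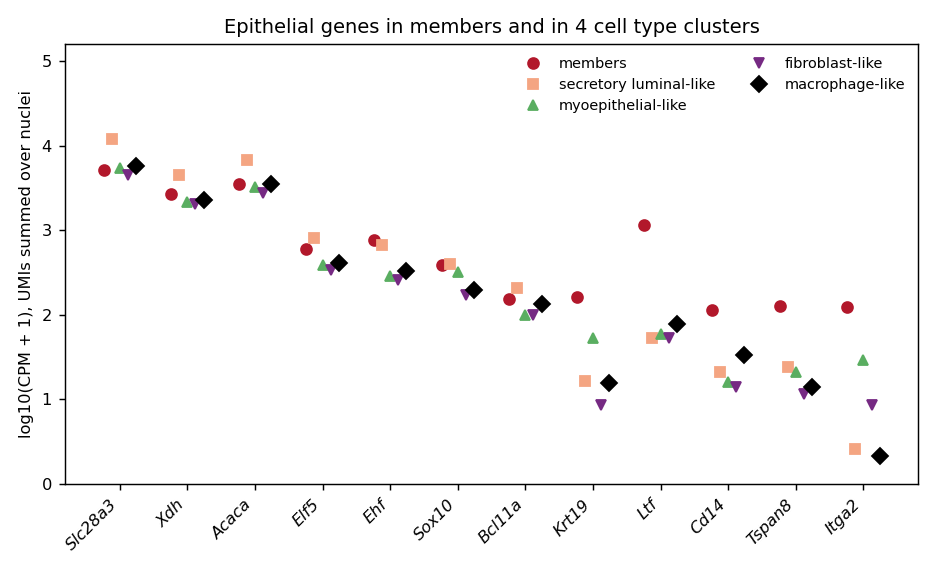
Level of 12 epithelial genes as log10 of CPM plus 1 (vertical axis) in members and in the secretory-, myoepithelial-, fibroblast- and macrophage-like clusters, one symbol each. For the milk genes Slc28a3, Xdh and Acaca the points of members and macrophage-like nuclei lie close together, while for Krt19, Ltf, Tspan8 and Itga2 members lie above the other 4.

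Summed markers of other cell types, pericytes aside, were lower in members than in other nuclei. Other nuclei hold those cell types, and the excluding genes of the rule also fix this in part. Secretory-like nuclei were lower than members in myoepithelial (40.5 CPM), fibroblast (160), endothelial (12.1), pericyte (51.6) and B and plasma cell markers (51.7). Secretory-like nuclei were higher than members in adipocyte (2580 CPM), hormone-sensing (915), macrophage (25.6) and T and NK cell markers (2.78). Summed myoepithelial markers were at 149 CPM in members and 536 in other nuclei, and 5 of the 7 with at least 10 UMIs were at -1 or less. Adipocyte markers were at 1508 CPM in members and 2901 in others (4 of 7 at -1 or less), macrophage markers at 24.8 CPM in members and 214 in others, and T and NK cell markers at 1.96 CPM in members and 25.1 in others, with 7 of 10 at 0. B and plasma cell markers were at 67.9 CPM in members and 143 in others, endothelial markers at 33.9 CPM in members and 106 in others, and pericyte markers, mostly Notch3, at 159 CPM in members and 137 in others. Fibroblast markers were at 406 CPM in members and 627 in others. They ranged between 64.2 and 962 CPM over animals, and were at 132 CPM in the 231 members of the luminal progenitor-like cluster. Hormone-sensing markers were at 627 CPM in members and 811 in others, with 4 of 12 at 0. The estrogen receptor gene Esr1 carried that difference (298 CPM in members, 563 in others), and over the 5 markers with at least 10 UMIs the median log2 ratio was 0.39, with none at -1 or less.

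The 10 genes with the lowest ratio included genes of adipocytes and smooth muscle. They were Kcnip4 (11.1 CPM in members, 104 in others, log2 ratio -3.12), Pid1, Car3, Pparg, Myh11, Arhgap15, Slc8a1, Pde3b, Kirrel3 and Nnat (log2 ratio -2.14). Kcnip4 was at 0 to 39.2 CPM in members and 3.66 to 24.6 CPM in other nuclei of the 8 animals and was higher in members in 5 of 8, so its ratio does not hold animal by animal. The other 9 genes were lower in members in at least 7 of 8 animals. Car3, of adipocytes, was at 53.5 CPM in members, 344 in others, Pparg, the adipocyte nuclear receptor, at 15.7 CPM in members, 94.6 in others and Myh11, of smooth muscle and myoepithelium, at 40.5 CPM in members, 216 in others. Against luminal clusters alone all 10 turned to positive ratios (0.0045 for Nnat to 2.58 for Myh11).

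The Kit pathway had a median near that of all genes. Of 13 genes with at least 10 UMIs, Kit and Lyn, a Src family kinase downstream of Kit, were at 1 or more, none at -1 or less, and the median was 0.37 (0.31 without Kit). Lyn was at 202 CPM in members, 88.8 in others and was higher in macrophage-like nuclei (802 CPM). Kitl, the Kit ligand, was at 116 CPM in members and 68.5 in other nuclei, and the kinase subunit Pik3r1 at 1080 CPM in members, 1630 in others.

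Retinoid genes included 4 of 9 at 1 or more and none at -1 or less, with a median of 0.98. Without Aldh1a3, which the rule used, 3 of 8 were at 1 or more and the median was 0.41. They included the retinoic acid receptor Rarg (40.5 CPM in members, 13.8 in others) and Dhrs3, which reduces retinaldehyde (61.3 CPM in members, 27.7 in others). Aldh1a1, another retinaldehyde dehydrogenase, was at 22.2 CPM in members, 43.7 in others and was highest in fibroblast-like nuclei (467 CPM).

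Among Wnt genes, 5 of 23 were at 1 or more and only the receptor Fzd4 (7.83 CPM in members, 19.3 in others) at -1 or less, with a median of 0.53 (4 of 22 and 0.49 without Wnt5b). The ligands were Wnt5b, of the rule, and Wnt7b (9.14 CPM in members, 0.0662 in others, from 14 UMIs). Planar polarity genes were Vangl1 (45.03 CPM in members, 10.2 in others) and Prickle1 (208 CPM in members, 83.01 in others), and the R-spondin receptor was Lgr6 (15.7 CPM in members, 4.68 in others). The nuclear effector Tcf7l2 was at 2102 CPM in members, 1294 in others and higher in 8 of 8 animals. The related receptor Lgr5 was at 14.4 CPM in members, 6.90 in others from 22 UMIs and higher in members of 1 of 8 animals.

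For Notch, which favours luminal fate, 4 of 14 genes were at 1 or more and none at -1 or less (median 0.13). The receptors Notch1 (46.99 CPM in members, 6.26 in others) and Notch3 (92.02 CPM in members, 44.1 in others) and the target genes Hes1 (77.01 CPM in members, 22.6 in others) and Hey1 (9.14 CPM in members, 0.662 in others, 14 UMIs) were the 4. The ligand Jag1 was at 10.4 CPM in members, 18.7 in others and the coactivator Maml2 at 913 CPM in members, 642 in others.

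Mucosal defence genes had 7 of 17 at 1 or more and 1 at -1 or less, with a median of 0.72. Fcgbp, which the rule used, is in that count, and without it 6 of 16 were at 1 or more with a median of 0.70. Besides Ltf, Muc4 and Cd14 they were complement C3 (56.8 CPM in members, 4.98 in others), the mucin Muc20 (22.2 CPM in members, 4.89 in others) and ceruloplasmin Cp (579.5 CPM in members, 215 in others). The gene at -1 or less was Ccl28, the chemokine that draws antibody-secreting cells (597 CPM in members, 1267 in others), and Pigr, which carries their antibodies into milk, was at 255 CPM in members, 324 in others.

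Duct ion and water transport had 8 of 17 at 1 or more and 1 at -1 or less, with a median of 0.46 (7 of 16 and 0.45 without Clca3a2). These were Clca3a2 of the rule, its neighbours in the family Clca3a1 (84.8 CPM in members, 14.2 in others) and Clca2 (7.18 CPM in members, 2.53 in others), the water channel Aqp5 (21.5 CPM in members, 0.293 in others), the sodium pump subunits Atp1b1 (36.5 CPM in members, 10.6 in others) and Fxyd3 (89.4 CPM in members, 27.4 in others), the chloride channel Ano1 (415 CPM in members, 200.0 in others) and the chloride importer Slc12a2 (143 CPM in members, 69.2 in others). Clca genes are close copies, and how reads that fit several of them were counted was not checked, so their levels are less sure. Slc34a2, the phosphate transporter of milk-making cells, was at 882 CPM in members, 1733 in others.

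Kallikreins and epithelial proteases had 4 of 9 at 1 or more and none at -1 or less (median 0.87). Klk11 of the rule is in that count, and without it 3 of 8 were at 1 or more with a median of 0.80. Klk13 (13.7 CPM in members, 0.161 in others) and Klk10 (8.48 CPM in members, 0.123 in others) lie in the same gene cluster as Klk11, and rested on 21 and 13 UMIs in members. The fourth was the serpin Serpinb5 (45.03 CPM in members, 18.5 in others), and the matriptase gene St14 was at 146 CPM in members, 104 in others.

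Growth factor and hormone pathways of lactation had medians between -0.19 and 0.32, against 0.18 for all genes. ErbB genes had 2 of 10 at 1 or more, Erbb2 (14.4 CPM in members, 5.32 in others) and Btc, a ligand of Egfr and Erbb4 (9.79 CPM in members, 0.757 in others), and Nrg4 (11.7 CPM in members, 49.9 in others) at -1 or less, with a median of 0.24, and the receptor Erbb4 was at 963 CPM in members, 495 in others. Prolactin and secretory differentiation had 1 of 18 at 1 or more, Id2 (63.96 CPM in members, 23.7 in others), and 1 at -1 or less, the milk calcium pump Atp2b2 (800.1 CPM in members, 1761 in others), with a median of -0.19. The prolactin receptor Prlr was at 292 CPM in members, 223 in others and its effector Stat5a at 255 CPM in members, 346 in others. Stat3 and involution genes had 3 of 15 at 1 or more, Igfbp5, Junb (71.8 CPM in members, 19.4 in others) and Bcl3 (28.7 CPM in members, 11.2 in others), and the receptor Lifr (84.8 CPM in members, 176 in others) at -1 or less, with a median of 0.32.

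Members held little Oxtr RNA. Oxtr had 20 UMIs in members, 13.1 CPM in members and 20.99 in other nuclei, and 171 CPM in myoepithelial-like nuclei, the cells that contract in response to oxytocin. Members of Oxtr-KO animals 1 to 4 had 0, 1, 2 and 3 UMIs and members of WT animals 1 to 4 had 3, 3, 0 and 1. At 0 to 3 UMIs an animal no difference was detectable at this depth. Of 12 genes of oxytocin receptor and calcium signalling, Itpr2, a calcium release channel, was at 1 or more (356 CPM in members, 128 in others) and Plcb1 at -1 or less (138 CPM in members, 303 in others), and the median was -0.13.

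**Figure D4:**
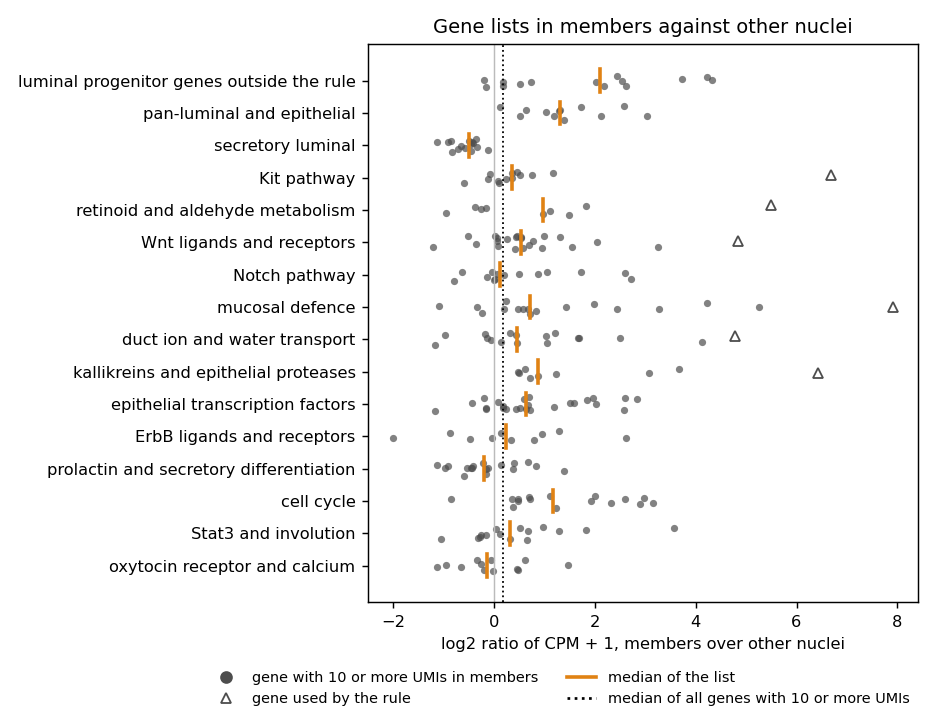
Log2 ratio of members to other nuclei (horizontal axis) for each gene with at least 10 UMIs in members, by gene list (rows); orange marks are list medians, triangles are genes of the rule and the dotted line is the median of all 11038 genes, 0.18. Luminal progenitor genes outside the rule have a median of 2.10, pan-luminal genes 1.30 and cell cycle genes 1.17. The medians of secretory genes (-0.49), prolactin and secretory differentiation genes (-0.19) and oxytocin receptor and calcium genes (-0.13) lie below 0.

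Genes of the cell cycle, which the rule did not use, were higher in members, with 9 of 16 at 1 or more, none at -1 or less and a median of 1.17. Top2a, a topoisomerase of dividing cells, was at 62.00 CPM in members, 7.43 in others, the mitotic motor Kif11 at 42.4 CPM in members, 4.49 in others, Cenpf at 24.1 CPM in members, 1.83 in others and cyclin D1, Ccnd1, at 33.9 CPM in members, 6.03 in others. Mki67, a marker of cycling cells, was at 56.8 CPM in members, 34.3 in others (log2 ratio 0.71). Macrophage-like nuclei had 47.6 CPM of Top2a and 20.4 CPM of Kif11. With at least 5 UMIs summed over 9 mitotic genes (Mki67, Top2a, Tpx2, Cenpf, Kif11, Cdk1, Ccnb1, Ccna2 and Bub1), 19 of 277 members (6.86%, 95% exact binomial interval 4.18 to 10.5%) were counted, against 127 of 20577 other nuclei (0.617%, 0.515 to 0.734%). After thinning to 2000 UMIs, with at least 3 UMIs asked for, the counts were 15 of 250 members (6%) and 62 of 17369 other nuclei (0.357%). Unthinned, the share was 0.363% in secretory-like, 0.495% in myoepithelial-like, 0.371% in fibroblast-like and 0.868% in endothelial-like nuclei, with a thinned share of 0.345% in fibroblast-like nuclei. Macrophage-like nuclei came closest among the clusters counted, with 34 of 799 (4.26%, 2.96 to 5.90%) unthinned and 17 of 524 (3.24%) thinned, and their interval overlaps that of members. Among 52 hormone-sensing-like nuclei none was counted, with an upper exact binomial bound of 6.85%. These intervals cover counting error only. Shares in the remaining clusters, and in the 62 nuclei of the luminal progenitor-like cluster that were not members, are not given here. The mitotic share is thus not shown to be particular to members.

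All 19 mitotic members lay in the luminal progenitor-like cluster, 3 of them were hashtag doublets, and their median depth was 5334 UMIs, against 3894 in the 258 other members. That they carried rule genes was fixed by the rule. Kit was at 395 CPM in mitotic and 282 in other members and Fcgbp at 1726 CPM in mitotic and 1261 in other members. Top2a was at 817 CPM in mitotic and 4.22 in other members, as the count fixed. Most UMIs of Top2a (89 of 95), Kif11 (60 of 65) and Cenpf (32 of 37) lay in the 19 mitotic members, while most of Ezh2 (238 of 301), Mcm7 (70 of 78), Mcm6 (27 of 33) and Ccnd1 (49 of 52) lay in the 258 others. For Mki67, 39 of 87 UMIs lay in the 258 others. In those 258 members, 3 of the 8 cell cycle genes with at least 10 UMIs were at a log2 ratio of 1 or more, Ccnd1, Mcm6 and Mcm7, and the median was 0.49. Aldh1a3 was at 27.5 CPM in mitotic and 136 in other members (3 UMIs in mitotic members), Ltf at 321 CPM in mitotic and 1209 in other members and Elf5 at 404 CPM in mitotic and 619.7 in other members.

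Mitotic members were found in all 8 animals. Oxtr-KO animals 1 to 4 had 1 of 6, 3 of 20, 1 of 34 and 1 of 27 (16.7, 15, 2.94 and 3.70%), and WT animals 1 to 4 had 3 of 25, 2 of 13, 3 of 21 and 1 of 14 (12, 15.4, 14.3 and 7.14%). The means were 9.58 ± 7.26% in Oxtr-KO and 12.2 ± 3.66% in WT animals (SD, n = 4 each), a difference of -2.63 points with an exact permutation p of 0.571 (2-sided). Without Oxtr-KO animal 1, which has 6 members, the difference was -4.99 points (exact permutation p = 0.229).

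The comparison of genotypes asks whether loss of Oxtr in adipocytes goes with a change in luminal progenitor-type nuclei. Members were 0.298% (6 of 2011), 1.21% (20 of 1648), 2.59% (34 of 1311) and 1.92% (27 of 1407) of the nuclei of Oxtr-KO animals 1 to 4, and 1.53% (25 of 1636), 0.784% (13 of 1659), 1.07% (21 of 1958) and 1.02% (14 of 1375) of those of WT animals 1 to 4. The lowest and the highest shares were both in animals labelled Oxtr-KO, and the groups overlapped. Which animal was lowest depended on how hashtags were called. With centred log ratios within barcodes, WT animal 2 was lowest (0.256%, 2 of 780), and Oxtr-KO animal 1 had 1.01% (35 of 3468). The mean was 1.51 ± 0.983% in Oxtr-KO and 1.10 ± 0.311% in WT animals (SD, n = 4 each), a difference of 0.405 points with a 2-sided exact permutation p of 0.457. The smallest p that 4 against 4 animals allow is 0.0286. The difference was 0.808 points without Oxtr-KO animal 1 and 0.0430 points without Oxtr-KO animal 3, so its size rests on single animals.

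Depth, which decides how often 3 of 8 markers are seen, differed less than the animals within a label. The median UMIs per member was 4436 ± 748 in Oxtr-KO and 4076 ± 687 in WT animals (SD, n = 4 each, exact permutation p = 0.514). The share of UMIs from milk protein genes was 10.1 ± 1.14% in Oxtr-KO and 10.1 ± 1.96% in WT animals (exact permutation p = 0.971).

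No gene passed the test between the genotypes within members. UMIs were summed per animal over its members, which gave 31146 to 154727 UMIs, and 2397 genes were tested with edgeR's quasi-likelihood test. None had an adjusted p under 0.05 (0% called), and the lowest adjusted p was 0.9998. At an unadjusted p under 0.05 there were 96 genes (4.01%), and for 54 (2.25%) the values of the 2 labels did not overlap. DESeq2 also called 0, with 35 genes at an unadjusted p under 0.05. The genotype difference in members was not called as different from that in other nuclei for any gene (0 of 2397, 0%, edgeR interaction, 116 at an unadjusted p under 0.05). In other nuclei 0 of 14964 genes passed by edgeR, with 1579 (10.6%) at an unadjusted p under 0.05 and a lowest adjusted p of 0.269. In data simulated at this depth with many genes changed at once, 98.7% of genes changed 4-fold and 17.4% of genes changed 2-fold were called. The smaller changes would thus mostly be missed. Where few genes change, the adjusted threshold is harder to pass, so changes of 4-fold in single genes are not excluded either.

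The genes with the smallest p are given as not called. Rab30, a small GTPase of the Golgi, was at 341, 421, 382 and 664 TMM-scaled CPM in Oxtr-KO animals 1 to 4 and 150.3, 122, 272 and 140.2 in WT animals 1 to 4, without overlap (log2 difference 1.36, SE 0.32, adjusted p = 0.9998 by edgeR). In other nuclei its log2 difference was 0.75. Prkg1, a cGMP-dependent kinase, was at 170.3, 54.9, 165 and 155 TMM-scaled CPM in Oxtr-KO animals 1 to 4 and 180.3, 1052, 316 and 631 in WT animals 1 to 4 (log2 difference -1.95, SE 0.51). The lowest WT value was close to the highest Oxtr-KO value, and WT animals 2 and 4 were highest. Summed over nuclei, Prkg1 was at 214 CPM in members, 2468 in myoepithelial-like and 424 in fibroblast-like nuclei, and the part of those cells in its difference was not tested. Sesn3, a stress-response gene, was at 128, 119, 130.1 and 99.6 TMM-scaled CPM in Oxtr-KO animals 1 to 4 and 220.4, 416, 305 and 140.2 in WT animals 1 to 4, again without overlap (log2 difference -1.17). The others of the 10 had log2 differences of -1.32 for A630089N07Rik, -1.33 for St3gal3, 1.12 for Sik2, -1.08 for Gm43154, 1.74 for Rnf214, 1.00 for Man2a1 and -1.07 for Naa16. With nuclei of at least 2 markers all 10 kept their sign but were smaller, between -0.07 for Gm43154 and 1.12 for Rnf214 in size. Rab30 was then at 0.23 and Prkg1 at -0.52.

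For none of the 8 genes of the rule did a difference between the labels pass the test. The log2 difference, Oxtr-KO minus WT, was -0.53 for Kit (SE 0.42), 0.35 for Fcgbp (SE 0.40), 0.75 for Clca3a2, 0.56 for Klk11, -0.02 for Thsd4, -0.40 for Wnt5b, 0.63 for Lrrc36 and -0.65 for Aldh1a3 (SE 0.48). All 8 overlapped between the labels. Of the pathway lists, none held a called gene. The lists differed in how many genes could be tested, such as 18 of 28 epithelial transcription factors (5 higher in Oxtr-KO, median log2 difference -0.26), 10 of 24 mucosal defence genes (5 higher, -0.02), 14 of 19 prolactin genes (9 higher, 0.17), 15 of 15 secretory genes (8 higher, 0.07) and 3 of 25 cell cycle genes (1 higher, -0.43), against 1181 of 2397 genes higher and a median of -0.01 over all genes tested. The only list genes at an unadjusted p under 0.05 were Tcf7l1 (log2 difference -0.94), the siderophore-binding defence protein Lcn2 (0.91) and the transcription factor Cebpb (0.66), all with an adjusted p of 0.9998 by edgeR.

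**Figure D5:**
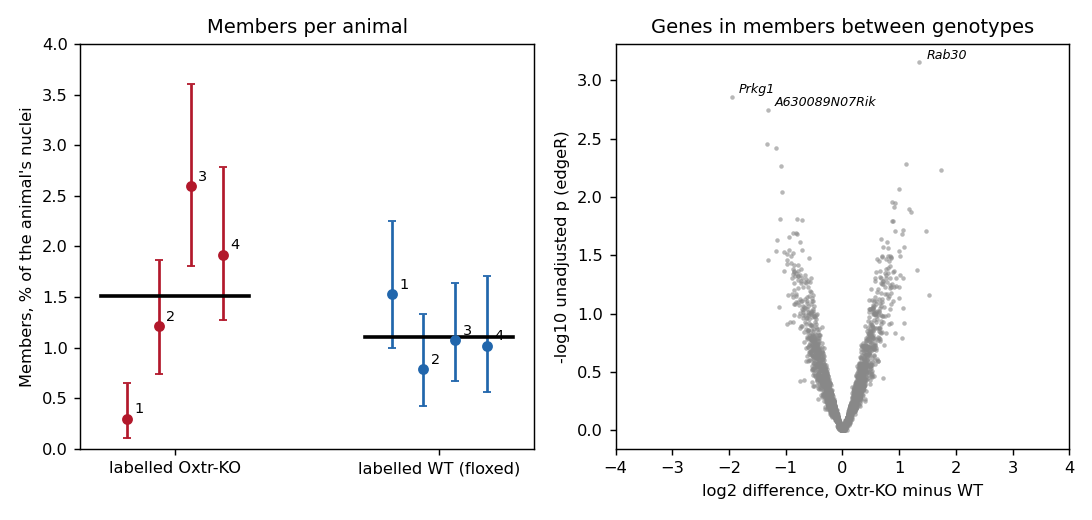
Left, members as a percentage of the nuclei of each animal, with 95% exact binomial intervals and black lines for the means, for animals labelled Oxtr-KO (red, left) and WT (blue). Right, the log2 difference of each of 2397 genes within members (horizontal axis) against -log10 of its unadjusted p (vertical axis), with the 3 genes of smallest p named; the shares overlap and 0 genes passed the adjusted threshold of 0.05.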

How the data were processed

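Single nuclei were profiled with a 10x Genomics RNA library and a hashtag library. The authors deposited raw UMI counts per gene and nucleus, whole numbers that are not normalized, and a list of hashtag UMIs with the read count behind each, which were counted per barcode. Per the submitters' processing notes, fastp, Cell Ranger 7.2.0 and the build GRCm39 were used. No source used here says how reads were matched to hashtags.

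Barcodes with at least 500 UMIs, 300 genes and under 5% mitochondrial UMIs were kept. Animals were called with HTODemux (Seurat 5.3.0, quantile 0.99, 9 of 10 hashtags). Clustering used scanpy 1.11.5 (2000 variable genes, 30 components, Leiden 0.5). Scrublet's threshold marked 1 nucleus and did not work, so doublets were taken from hashtags. Members are described with hashtag doublets included, while tests use nuclei of 1 animal. Counts summed per animal were tested with edgeR 4.0.16 (quasi-likelihood, TMM, filterByExpr, Benjamini-Hochberg, threshold 0.05, R 4.3.3), with DESeq2 1.42.0 as an alternative, after a check on simulated data. Values per animal were compared with 2-sided exact permutation tests.

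The members and gene lists were chosen with earlier results of these data known. The text names the 25 highest and 10 lowest ratios, the genes of the rule, progenitor genes outside it, and the 10 smallest p values between genotypes. Genes named from the other lists beyond that rule were chosen after their values were seen. Animals are separate, but shared 1 library.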

Additional observations from a re-analysis of the deposited data

Results flagged for a closer look

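In 5 of 76 groups of 4 animals, a single animal stood apart from the other 3 in its level within luminal progenitor-type nuclei, by the ratio of its gap to the range. Chance flags about 1 group in 20, which is 3.8 of 76. Msln was at 24.5 CPM in Oxtr-KO animal 4, below the other Oxtr-KO animals. Igfbp5 was at 368 CPM in Oxtr-KO animal 3, above the other Oxtr-KO animals. Atp10b was at 65.2 CPM in WT animal 4, below the other WT animals. Rgs20 was at 981 CPM and Plscr2 at 314 CPM in WT animal 2, above the other WT animals, and that animal has 13 such nuclei.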

How the results depend on the processing

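The share of luminal progenitor-type nuclei was higher in Oxtr-KO than in WT animals on average, and not past the threshold, under every alternative run: 0.177 points with all 10 hashtags (exact permutation p = 0.771) to 0.762 points with centred log ratios within barcodes (p = 0.114), and 0.0430 to 0.808 points leaving out each animal. With at least 4 markers the difference in median UMIs was -231 and in median genes -42.4, against positive values with 3. Members in the luminal progenitor-like cluster were 90.1% with at least 4 markers and 88.9% without hashtag doublets. Against luminal clusters, 588 genes were at a log2 ratio of 2 or more, and the 10 lowest genes turned positive: Kcnip4 1.42, Pid1 1.25, Car3 2.08, Pparg 1.85, Myh11 2.58, Arhgap15 1.21, Slc8a1 1.90, Pde3b 2.00, Kirrel3 2.41 and Nnat 0.0045. Genes called between genotypes, 0 by edgeR, were 1 without a filter on low counts (Prkg1, log2 difference -1.83, adjusted p = 0.0224), and 0 to 1 leaving out each animal: without WT animal 4, Spp1 (adjusted p = 0.0193) and, for the difference from other nuclei, Gm12724 (adjusted p = 0.00125). The causes were not tested. Replicate numbers did not pair the animals (correlations of deviations -0.209 to -0.0303, none best with its own number), and with the replicate block 0 genes were called. With 6 to 34 members per animal and many genes changed at once, simulated 2-fold changes were called for 17.4% of genes and 4-fold changes for 98.7%.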

Other observations

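The 65 luminal progenitor-type nuclei without a called hashtag were 1.17% of 5570 such nuclei, and the 51 with more than 1 hashtag were 2.53% of 2012, against 160 of 13005 (1.23%) among nuclei of 1 named animal. These nuclei belong to no genotype and enter no test.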
